A study of Danio rerio with 6 samples.

Results

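Pigment cell synthesis genes are genes whose products make or help to make the colored and reflecting materials of zebrafish pigment cells. They were chosen by name, as 10 listed symbols, with earlier results of these data known, and no measured value enters the rule itself. In the deposited table, which holds 32520 genes, the 10 symbols led to 11 genes. The names mitfa, tyrp1a and tyrp1b are given there without the paralog letter, as MITF and TYRP1, each carried by 2 genes. Both tyrp1 paralogs were listed but only mitfa of the MITF genes, so 1 of the 2 MITF genes is not a listed gene, and both are described. The gene identifier is therefore printed beside these symbols, and which copy is the a or the b paralog is not assigned here. By lineage the set holds 7 melanophore genes, 2 xanthophore genes (gch2 and XDH), 1 iridophore gene (pnp4a), and GPNMB, which is expressed by more than 1 pigment lineage and by macrophages.

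Zebrafish carry 3 main pigment cell types, all derived from the neural crest. Black melanophores make melanin from tyrosine inside melanosomes, yellow xanthophores make pteridines from guanosine triphosphate and store carotenoids, and silvery iridophores hold crystals of purines. The retinal pigment epithelium, a layer of the eye, makes melanin with the same enzymes and is not of neural crest origin.

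The data are RNA sequencing counts from cells sorted for green fluorescent protein (GFP) out of dissociated zebrafish embryos. All the embryos carried a transgene in which sp7, an osteoblast transcription factor gene, directs GFP, and the labels call the sorted cells embryonic osteoblasts. One group of 3 libraries came from control embryos and another of 3 from embryos given 200 nM bisphenol A (BPA), an industrial chemical with estrogenic activity, from 24 hours to 4 days post fertilization, and both groups were collected at 4 days. There were 400 embryos to an arm. What the control medium held is not stated, nor is it stated that the 3 libraries of a group are separate collections of fish, so the p-values measure only the spread between these libraries, which may be technical.

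The libraries held between 30748435 and 43403568 counts. Computed across genes, which are not independent replicates, the correlation of log2 levels was 0.963 to 0.984 for libraries of the same group and 0.944 to 0.951 for libraries of different groups. Osteoblast transcripts were present with gaps: SP7 was at 6.87 ± 1.55 CPM (the count scaled to library size; SD, n = 3) in the control group and 8.49 ± 0.355 CPM with BPA (adjusted p = 0.175). COL10A1 (ENSDARG00000054753) was at 212 ± 10.7 and 208 ± 3.93 CPM and did not pass (adjusted p = 0.582). The other COL10A1 gene (ENSDARG00000101535) was at 0.156 ± 0.0907 and 0.592 ± 0.126 CPM and did not pass either (adjusted p = 0.0695). No count fell on bglap, the gene of osteocalcin, in any of the 6 libraries, and 0 counts allow up to 0.0930 CPM in the shallowest control library and 0.0974 CPM in the shallowest BPA library. Of 10 osteoblast markers tested 0 rose and 3 fell, or 30% past an adjusted p of 0.05, against 38.8% of all genes tested. Those that fell were spp1, IFITM5 and PANX3, each of which lost the call without at least 3 of the libraries left out singly. Markers of cells other than osteoblasts were also present, and their values stand beside the pigment genes they bear on. In such pooled RNA a change in the number of cells of a type and a change in RNA per cell cannot be told apart.

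All 11 pigment genes passed the filter on low counts and were tested, MITF (ENSDARG00000037833) only with the BPA libraries, where it was high. In the BPA libraries 6 of the 11 rose, 0 fell and 5 did not pass an adjusted p of 0.05 (edgeR's quasi-likelihood test, Benjamini-Hochberg adjustment over 21194 genes). None of the 11 was lower at an unadjusted p under 0.05, nor by DESeq2 at an adjusted p of 0.05. Over all genes tested 38.8% were called, 20.1% higher and 18.7% lower. The genes that rose were TYR, TYRP1 (ENSDARG00000056151) and pmela of the melanophore, gch2 of the xanthophore, GPNMB, and MITF (ENSDARG00000037833). This MITF gene had few reads and may not be the listed copy. With only 1 MITF gene counted, 6 of 10 were called higher if it is ENSDARG00000003732 that is left out and 5 of 10 if it is ENSDARG00000037833. The median log2 fold change of the 11 was 0.29, against -0.0029 over all genes. Without BPA library 2, only 3 of the 11 were called, namely TYR, TYRP1 (ENSDARG00000056151) and gch2. These 3 calls held under all 12 alternatives tried.

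**Figure D1:**
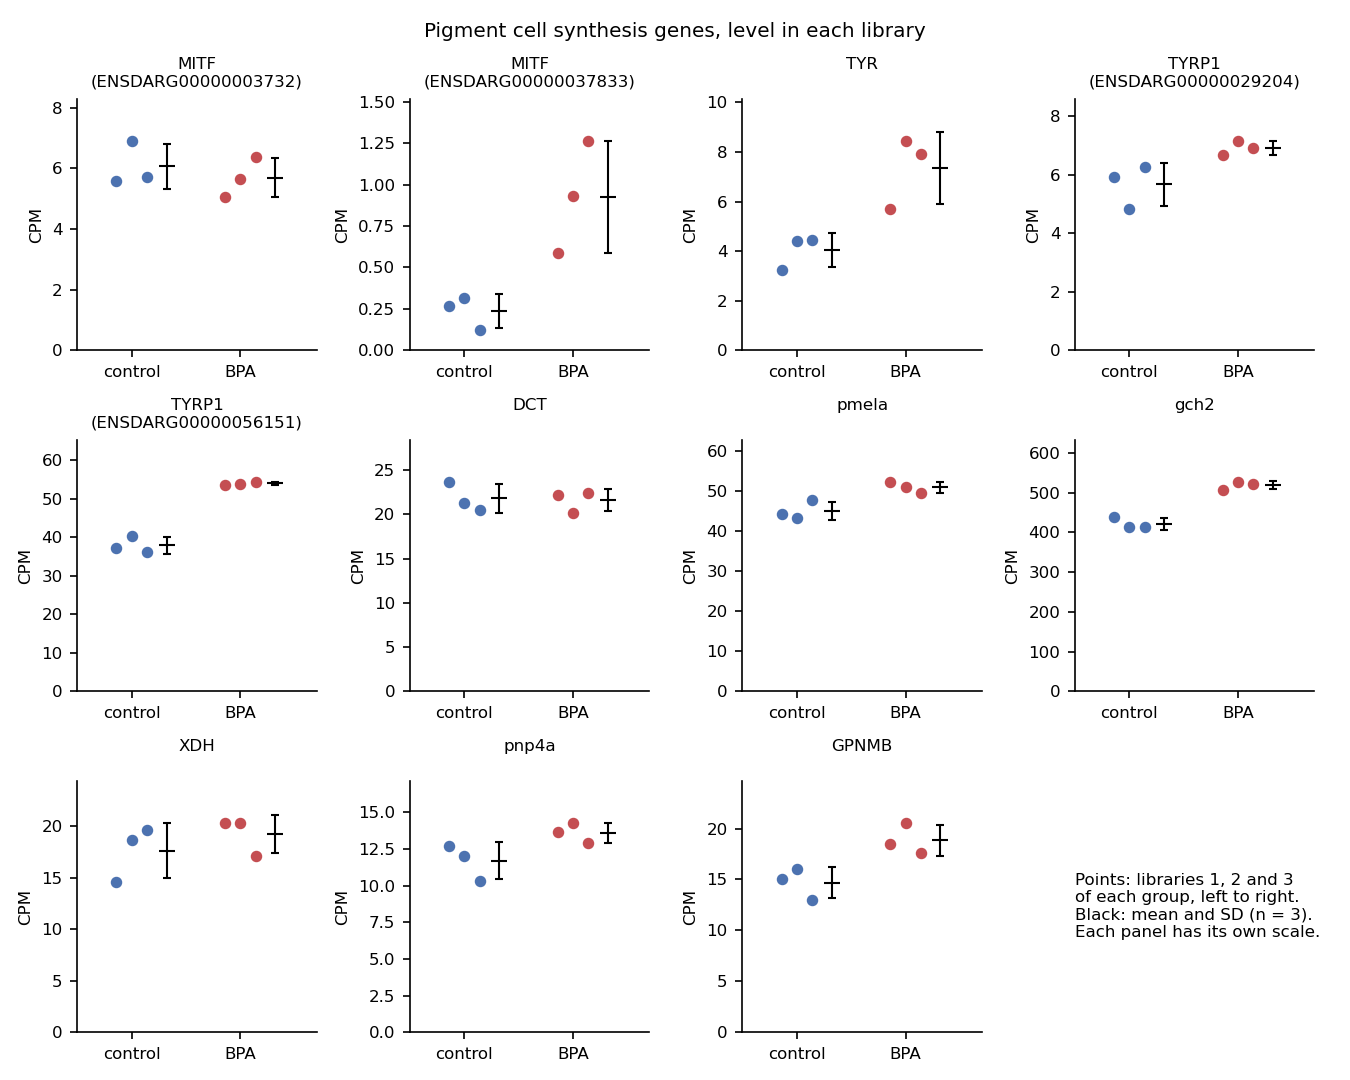
Level in CPM of each pigment cell synthesis gene in the 3 control and 3 BPA libraries, each panel with its own axis from 0; points are libraries 1, 2 and 3 from left to right, and the black mark and bar are the mean and SD. For 8 of the 11 genes the 3 BPA points lie above the 3 control points, and they overlap for MITF (ENSDARG00000003732), DCT and XDH.

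MITF encodes the transcription factor that directs melanophore fate and the melanin enzyme genes, and 1 of its 2 gene copies passed the test. MITF (ENSDARG00000003732) was at 5.59, 6.91 and 5.70 CPM in control libraries 1, 2 and 3 and at 5.07, 5.66 and 6.36 CPM in BPA libraries 1, 2 and 3. These ranges overlapped, and the log2 fold change was -0.09 ± 0.13 (SE of the difference of mean log2 CPM; adjusted p = 0.749). MITF (ENSDARG00000037833) had few reads, with counts of 10, 14 and 4 in control libraries 1, 2 and 3 and of 18, 39 and 54 in BPA libraries 1, 2 and 3. Its mean rose from 0.237 ± 0.101 to 0.925 ± 0.339 CPM (SD, n = 3 each), a log2 fold change of 1.94 ± 0.45 (adjusted p = 0.0233), with every BPA library above every control library. One control library lay below the filter's minimum level for this gene. The gene therefore passed the filter only with the BPA libraries, where it was high. The call was lost without control library 3 (adjusted p = 0.0602), BPA library 2 (0.0869) or BPA library 3 (0.177). The log2 ratio of this copy to the other went from -4.78 ± 0.64 to -2.69 ± 0.40 (SD, n = 3), and the groups did not overlap. The exact permutation test gave p = 0.1, the smallest that 3 against 3 libraries allow, or 0.167 adjusted over the 5 paralog pairs compared.

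Of the melanin enzymes, TYR and 1 copy of TYRP1 rose, while DCT and the other TYRP1 copy did not pass. TYR encodes tyrosinase, which performs the first and rate-limiting step from tyrosine. It was at 3.25, 4.41 and 4.46 CPM in control libraries 1, 2 and 3 and at 5.68, 8.45 and 7.91 CPM in the BPA libraries. All 3 BPA values lay above the controls, with BPA library 1 the nearest to them. The rise was 1.82-fold (log2 fold change 0.87 ± 0.23 SE, adjusted p = 8.96e-04).

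TYRP1 encodes a tyrosinase-related protein that acts late in eumelanin synthesis. TYRP1 (ENSDARG00000056151) was at 37.2, 40.3 and 36.2 CPM in the control libraries and 53.6, 53.8 and 54.4 CPM in the BPA libraries. The BPA values were close together and well above the controls, a rise of 1.42-fold (log2 fold change 0.51 ± 0.05 SE, adjusted p = 3.22e-07). The other copy, TYRP1 (ENSDARG00000029204), was at 5.91, 4.84 and 6.26 CPM and at 6.69, 7.16 and 6.93 CPM. Its groups did not overlap either, yet it did not pass the test (log2 fold change 0.29 ± 0.11 SE, adjusted p = 0.205). The log2 ratio of the copies did not separate the groups (2.75 ± 0.28 and 2.96 ± 0.05, SD; exact permutation p = 0.4), so a difference between the copies was not shown.

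DCT, dopachrome tautomerase, works between tyrosinase and the tyrosinase-related protein. It was at 23.7, 21.3 and 20.5 CPM in the control libraries and 22.2, 20.1 and 22.4 CPM in the BPA libraries. The ranges overlapped (log2 fold change -0.02 ± 0.08 SE, adjusted p = 0.915). Read within each library, the log2 ratio of TYR to DCT was -2.86, -2.27 and -2.20 in the controls and -1.96, -1.25 and -1.50 in the BPA libraries. That of TYRP1 (ENSDARG00000056151) to DCT was 0.65, 0.92 and 0.82, then 1.27, 1.42 and 1.28. Neither ratio overlapped between groups. Each had an exact permutation p of 0.1, the smallest possible, or 0.204 adjusted over the 55 pairs of pigment genes compared. In 27 of the 55 pairs the ratios did not overlap, and for single genes over all those tested 48.4% did not. The 27 include every pair with MITF (ENSDARG00000037833), which passed the filter only with the BPA libraries, where it was high. The pairs share genes, and no share over all gene pairs was computed.

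The premelanosome gene pmela encodes the amyloid fibrils on which melanin is laid down. It was at 44.4, 43.3 and 47.7 CPM in the control libraries and 52.4, 51.2 and 49.6 CPM in the BPA libraries, with no overlap. The rise was 1.13-fold (log2 fold change 0.18 ± 0.05 SE, adjusted p = 0.0309). The call was lost without control library 1 (adjusted p = 0.0629), control library 2 (0.0980), BPA library 1 (0.118) or BPA library 2 (0.0867). Its paralog pmelb was at 7.75 ± 1.29 and 6.67 ± 1.20 CPM (SD, n = 3) and did not pass (adjusted p = 0.364).

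In the xanthophore lineage, gch2 encodes the GTP cyclohydrolase that opens the pteridine pathway in pigment cells. It was at 439, 413 and 413 CPM in the control libraries and at 507, 527 and 522 CPM in the BPA libraries. The groups lay far apart for their spread, and the rise was 1.23-fold (log2 fold change 0.30 ± 0.03 SE, adjusted p = 3.08e-08). XDH, xanthine dehydrogenase, takes part in making xanthopterin-type yellow pteridines and in purine breakdown. It was at 14.6, 18.7 and 19.6 CPM and at 20.3, 20.3 and 17.1 CPM. The groups overlapped, and it did not pass (log2 fold change 0.13 ± 0.16 SE, adjusted p = 0.420).

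The iridophore gene pnp4a encodes a purine nucleoside phosphorylase, which frees the purine base from its nucleoside. It was at 12.7, 12 and 10.3 CPM in the control libraries and 13.6, 14.3 and 12.9 CPM in the BPA libraries. All BPA values were above all control values by a small gap, and the gene did not pass (log2 fold change 0.22 ± 0.10 SE, adjusted p = 0.185). Among the 11 pigment genes the BPA values lay above all control values for 8 and below them for 0. Over all genes tested the groups did not overlap for 48.4%, with 25.2% above and 23.2% below.

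GPNMB encodes a melanosome and lysosome membrane glycoprotein related to the pmel proteins. It was at 15, 16 and 13 CPM in the control libraries and 18.4, 20.6 and 17.6 CPM in the BPA libraries. The groups did not overlap and the rise was 1.28-fold (log2 fold change 0.36 ± 0.11 SE, adjusted p = 0.0120). The call was lost without control library 3 (adjusted p = 0.0586) or BPA library 2 (0.0992). Macrophage and osteoclast markers moved beside it. Of the 15 tested, 7 rose and 2 fell, or 60% called against 38.8% over all genes. Those that fell were CTSK and MFAP4 (ENSDARG00000088745), the latter call being lost without BPA library 1 (adjusted p = 0.117). Other MFAP4 genes rose, ENSDARG00000090783 from 9.03 ± 0.955 to 13.5 ± 0.378 CPM and ENSDARG00000038683 from 0.649 ± 0.406 to 2.18 ± 0.255 CPM. The latter lay below the filter's minimum level in control library 1, so it passed the filter only with the BPA libraries, where it was high. The remaining MFAP4 genes tested did not pass. SPI1, which encodes a transcription factor of myeloid cells, was higher with BPA (4.58 ± 0.891 against 12.7 ± 0.712 CPM). The summed level of the list was 379 to 391 CPM in the control and 393 to 401 CPM in the BPA libraries. Their part in the GPNMB result was not tested.

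Set side by side, the summed levels of the synthesis genes of each lineage, which for the iridophore is pnp4a alone, were 1.16- to 1.23-fold higher in the BPA libraries. The summed level of the 7 melanophore genes was 120 to 121 CPM in the control and 146 to 149 CPM in the BPA libraries, 1.22-fold. Most of this rise came from TYRP1 (ENSDARG00000056151), at 37.9 and 53.9 CPM on average, while DCT and MITF (ENSDARG00000003732) did not rise. For the 2 xanthophore genes the summed level was 432 to 453 and 528 to 548 CPM, 1.23-fold and set mostly by gch2, and for pnp4a it was 1.16-fold. The log2 ratio of gch2 to pnp4a was 5.18 in the control and 5.25 in the BPA libraries on average, with overlap (exact permutation p = 0.5). The wider lists described next did not share this range. Their summed level was 371 to 380 CPM in the control and 376 to 382 CPM in the BPA libraries for melanophore and melanosome genes (1.01-fold), 351 to 394 and 469 to 483 CPM for xanthophore and pteridine genes (1.26-fold), and 289 to 300 and 227 to 232 CPM for iridophore genes (0.781-fold). The iridophore sum holds 2 genes called lower, pnp4b (83.4 to 28.1 CPM on average) and FHL2 (ENSDARG00000042018) (42.4 to 19.4 CPM). In the same list 5 genes were called higher, so the lower sum does not describe the list as a whole. Within the melanophore synthesis genes the log2 fold changes ran from -0.09 to 1.94. The upper end was MITF (ENSDARG00000037833), which had few reads and may not be the listed copy, and the next was TYR at 0.87.

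**Figure D2:**
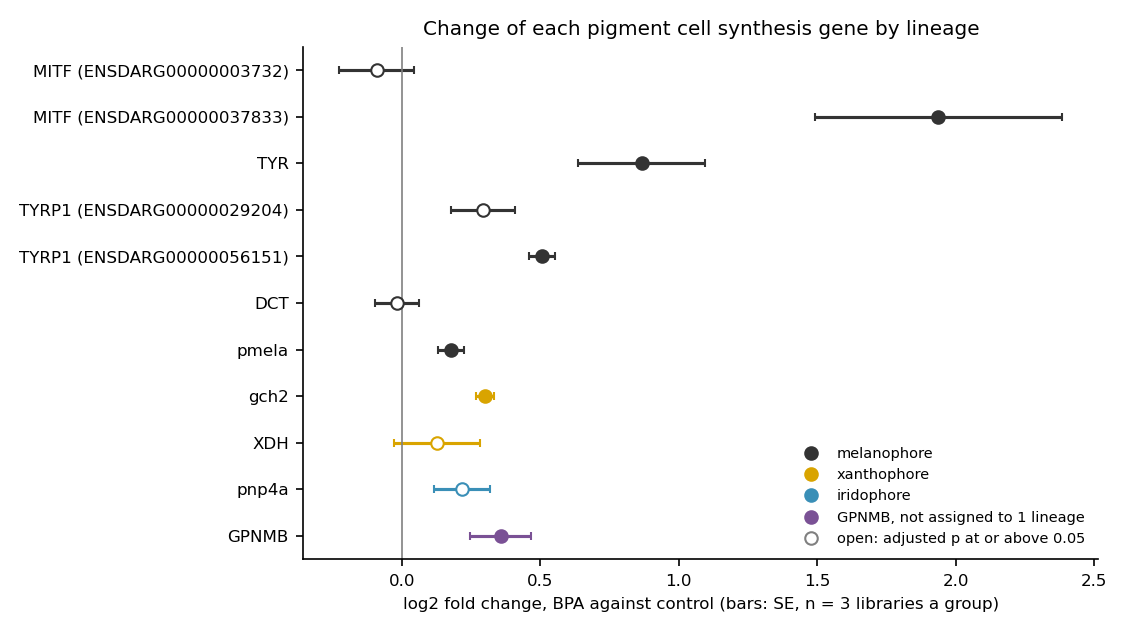
Log2 fold change, BPA against control, of each pigment cell synthesis gene, colored by lineage; bars are SE, from 3 libraries a group, and open points did not pass an adjusted p of 0.05. The melanophore genes spread from -0.09 to 1.94, the upper end being MITF (ENSDARG00000037833), which had few reads and may not be the listed copy. The genes gch2, XDH and pnp4a lie between 0.13 and 0.30.

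Among other melanophore and melanosome genes 7 of 27 were called higher, 3 lower and 17 neither, or 37% called against the 38.8% over all genes. The melanocortin receptor gene MC1R rose from 0.668 ± 0.309 to 1.82 ± 0.335 CPM (SD, n = 3; adjusted p = 0.00975), a call lost without BPA library 1 (0.0694). The cystine transporter gene slc7a11 rose from 0.982 ± 0.371 to 2.34 ± 0.697 CPM, a call lost without BPA library 3 (adjusted p = 0.0892). MYO5A, the motor that carries melanosomes along actin, rose from 5.70 ± 1.43 to 10.8 ± 1.61 CPM (adjusted p = 1.21e-04). The gene mlphb, a relative of the melanophilin that links this motor to the melanosome, rose from 8.35 ± 1.66 to 14.3 ± 0.643 CPM (adjusted p = 6.72e-05). The gene named MLPH, for melanophilin, did not pass (19.8 ± 2.28 and 19.0 ± 2.16 CPM, adjusted p = 0.732). The listed gene zgc:91968 rose from 3.75 ± 0.239 to 8.25 ± 0.626 CPM (adjusted p = 8.32e-06).

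KIT, the receptor that melanophores need to migrate and survive, was called higher (4.92 ± 2.05 to 7.68 ± 0.841 CPM, adjusted p = 0.0214), but not without control library 1 (0.132), BPA library 1 (0.107) or BPA library 2 (0.0682). The calls downward were trpm1b (19.7 ± 1.02 to 14.1 ± 1.35 CPM), TFAP2E (22.9 ± 3.68 to 15.3 ± 0.430 CPM) and AP3B1 (40.8 ± 1.51 to 35.1 ± 2.42 CPM). That of AP3B1, a sorting adaptor subunit, was lost without control library 1 (adjusted p = 0.0579) or BPA library 1 (0.137). Ion and solute transporters of the melanosome did not pass: SLC24A5 was at 0.544 ± 0.448 and 0.940 ± 0.269 CPM, OCA2 at 1.05 ± 0.218 and 1.26 ± 0.248 CPM, and SLC45A2 at 8.25 ± 1.32 and 7.40 ± 1.21 CPM.

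Eye cells, which share the melanin enzymes, were measured by other markers. Of 12 genes listed for the retinal pigment epithelium 1 was called higher and 3 lower, or 33.3% called against 38.8% over all genes. Those lower were rlbp1a, rgrb and an RPE65 gene. The call of rgrb was lost without control library 2 (adjusted p = 0.138), BPA library 2 (0.118) or BPA library 3 (0.119). The summed level of the 12 genes was 109 to 124 CPM in the control and 101 to 107 CPM in the BPA libraries. The genes named RPE65, the retinoid isomerase of that layer, went both ways: ENSDARG00000007480 fell from 26.1 ± 4.71 to 19.0 ± 0.766 CPM and ENSDARG00000094752 rose from 15.1 ± 0.301 to 26.8 ± 1.12 CPM. The remaining RPE65 gene, ENSDARG00000054420, did not pass (2.74 ± 0.553 and 3.15 ± 0.738 CPM, adjusted p = 0.633). The retinaldehyde binding protein gene rlbp1a fell from 22.8 ± 1.86 to 8.65 ± 1.01 CPM (adjusted p = 6.4e-11). Its paralog rlbp1b was at 3.32 ± 1.03 and 3.32 ± 0.140 CPM (adjusted p = 0.997). Photoreceptor markers fell in 11 of 12 cases, against 18.7% of all genes called lower. Their summed level went from between 1275 and 1313 to between 695 and 710 CPM. The part of eye cells in the melanin gene values was not tested.

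Other xanthophore and pteridine genes were called in 68.4% of cases, against 38.8% over all genes, with 9 of 19 higher, 4 lower and 6 not past. Several markers of the lineage were among those that rose. The gene aox5, an aldehyde oxidase gene used as a xanthophore marker, was at 70.9, 81.7 and 87.7 CPM in the control libraries and 136, 141 and 142 CPM in the BPA libraries, with a wide gap between the groups. Its rise was 1.74-fold (log2 fold change 0.80 ± 0.09 SE, adjusted p = 1.05e-12). The receptor gene csf1ra, which xanthophores need and macrophages also express, was at 35.0, 40.6 and 46.9 CPM and at 55.8, 58.1 and 59.1 CPM (adjusted p = 4.66e-06). The sugar transporter family genes slc2a15a and slc2a15b were both higher with BPA, at 8.22 ± 1.1 against 17.3 ± 1.26 CPM and 10.9 ± 0.672 against 22.4 ± 1.80 CPM. Another listed gene of this family, slc2a11b, did not pass (56.5 ± 4.29 and 53.9 ± 0.438 CPM, adjusted p = 0.447). A PAX7 gene (ENSDARG00000070818), whose family acts in xanthophore fate, rose from 19.7 ± 2.08 to 27.0 ± 1.47 CPM, and the other PAX7 gene (ENSDARG00000100398) did not pass (adjusted p = 0.813).

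Enzymes of the pteridine and tetrahydrobiopterin pathway went in opposite directions. GCH1, the GTP cyclohydrolase paralog that serves cofactor synthesis in other tissues, was at 11.6, 12.6 and 11 CPM in the control libraries and 7.27, 7.02 and 4.91 CPM in the BPA libraries. It fell by 0.88 ± 0.19 (SE) on the log2 scale (adjusted p = 5.03e-05) while gch2 rose. The log2 ratio of gch2 to GCH1 went from 5.17 ± 0.12 to 6.36 ± 0.32 (SD, n = 3) with no overlap (exact permutation p = 0.1, the smallest possible, 0.167 adjusted over 5 paralog pairs). GCHFR, which in mammals binds GTP cyclohydrolase and regulates it, fell from 12.1 ± 1.08 to 4.59 ± 0.452 CPM (adjusted p = 2.08e-08).

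The next enzyme, PTS, rose from 23.0 ± 2.83 to 30.5 ± 1.11 CPM (adjusted p = 7.57e-04). Of the genes named SPR, for sepiapterin reductase, ENSDARG00000058553 rose from 0.312 ± 0.268 to 2.80 ± 0.315 CPM (5, 8 and 20 against 97, 107 and 115 counts; adjusted p = 1.72e-06). Control libraries 1 and 2 lay below the filter's minimum level for it, so it was tested only through the BPA group, where it was high. The SPR gene ENSDARG00000004406 did not pass (7.94 ± 1.98 and 5.98 ± 0.312 CPM, adjusted p = 0.0805). The cofactor recycling genes PCBD1 and QDPR (ENSDARG00000040190) fell from 19.5 ± 1.98 to 13.7 ± 1.95 CPM and from 21.6 ± 2.41 to 13.3 ± 1.20 CPM. Liver, a tissue that also makes this cofactor, gave lower values too: all 10 liver markers fell, against 18.7% of all genes called lower. The liver list was named after its values were seen, so the share only describes these 10 markers. Their summed level was 1930 to 2011 CPM in the control and 684 to 699 CPM in the BPA libraries. Their part in the fall of GCH1, GCHFR, PCBD1 and QDPR was not tested.

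**Figure D3:**
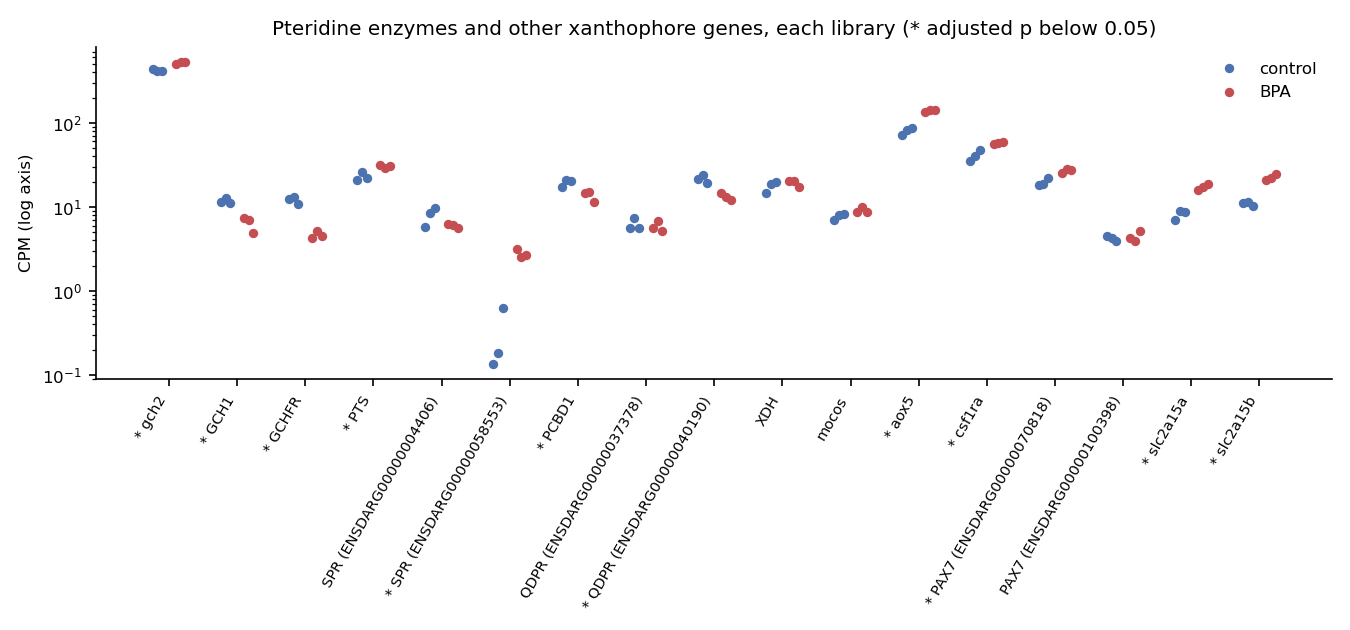
Level in CPM on a log axis of pteridine enzymes and other xanthophore genes in each control and BPA library; a star marks an adjusted p below 0.05. Points for gch2, PTS, aox5, csf1ra, slc2a15a and slc2a15b lie higher in the BPA libraries, and those for GCH1, GCHFR and PCBD1 lower.

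Among the iridophore genes ltk and TFEC rose and the phosphorylase gene pnp4b fell. Of 15 iridophore genes 5 were called higher, 2 lower and 8 neither, or 46.7% called against 38.8% over all genes. Among those not past were both ALX4 genes, alkal1, ALKAL2 and an EDNRB gene (ENSDARG00000089334). The receptor tyrosine kinase gene ltk, which iridophores need, was at 8.33, 7.73 and 9.24 CPM in the control libraries and 11, 13.9 and 13.4 CPM in the BPA libraries, with no overlap. It rose by 0.61 ± 0.13 (SE) on the log2 scale (adjusted p = 8.65e-04). The TJP1 gene also rose, from 77.6 ± 5.83 to 89.3 ± 3.33 CPM. TFEC, a relative of MITF that acts in iridophores, was at 3.28, 2.27 and 1.74 CPM and at 4.35, 4.33 and 4.47 CPM (adjusted p = 0.00835). The gene alkal2b, which encodes a ligand of this receptor, rose from 0.669 ± 0.0720 to 1.54 ± 0.191 CPM, with an adjusted p of 0.0331 and of 0.0504 to 0.127 without any 1 library other than control library 1.

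The pnp4a paralog pnp4b was at 88.0, 79.7 and 82.5 CPM in the control libraries and 27.5, 27.2 and 29.8 CPM in the BPA libraries, far below. It fell by 1.57 ± 0.06 (SE) on the log2 scale (adjusted p = 2.95e-18). The log2 ratio of pnp4a to pnp4b went from -2.84 ± 0.14 to -1.05 ± 0.14 (SD, n = 3), again with no overlap and an exact permutation p of 0.1. The genes named FHL2 moved in opposite directions, with ENSDARG00000003991 rising from 1.85 ± 0.317 to 3.48 ± 0.282 CPM and ENSDARG00000042018 falling from 42.4 ± 3.77 to 19.4 ± 0.909 CPM. Whether reads were shared between paralogs is not stated in the sources used here.

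Purine synthesis supplies the iridophore crystals and is also used by every growing cell. The list for it also holds salvage and breakdown enzymes, ADA and GDA among them. Of its 19 genes 11 were called higher and 1 lower. With 7 not past, 63.2% were called against 38.8% over all genes, and the median log2 fold change was 0.48. Of the enzymes that build inosine monophosphate, PPAT, GART, PFAS, PAICS and ATIC rose, and ADSL did not pass (adjusted p = 0.673). PFAS rose from 28.9 ± 1.14 to 55.1 ± 0.815 CPM and ATIC, which performs the last steps, from 23.2 ± 1.7 to 48.7 ± 1.95 CPM. On the branch to adenosine monophosphate ADSS2 rose from 22.0 ± 0.676 to 38.2 ± 1.06 CPM and ADSS1 from 114 ± 4.83 to 165 ± 2.17 CPM. The related gene adssl did not pass (102 ± 2.24 and 102 ± 5.59 CPM, adjusted p = 0.975). On the branch to guanosine monophosphate IMPDH1 (ENSDARG00000029524) rose from 39.1 ± 2.03 to 55.4 ± 1.58 CPM (adjusted p = 3.38e-07), and the other IMPDH1 gene (ENSDARG00000042336) and GMPS did not pass, GMPS being at 82.6 ± 2.97 and 87.2 ± 3.80 CPM. IMPDH2 passed narrowly with overlapping groups (adjusted p = 0.0493), and lost the call in 7 of 12 alternatives. Adenosine deaminase, ADA, rose from 47.8 ± 0.827 to 88.7 ± 1.1 CPM, and the guanine deaminase gene GDA fell from 11.9 ± 0.831 to 6.74 ± 1.03 CPM.

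**Figure D4:**
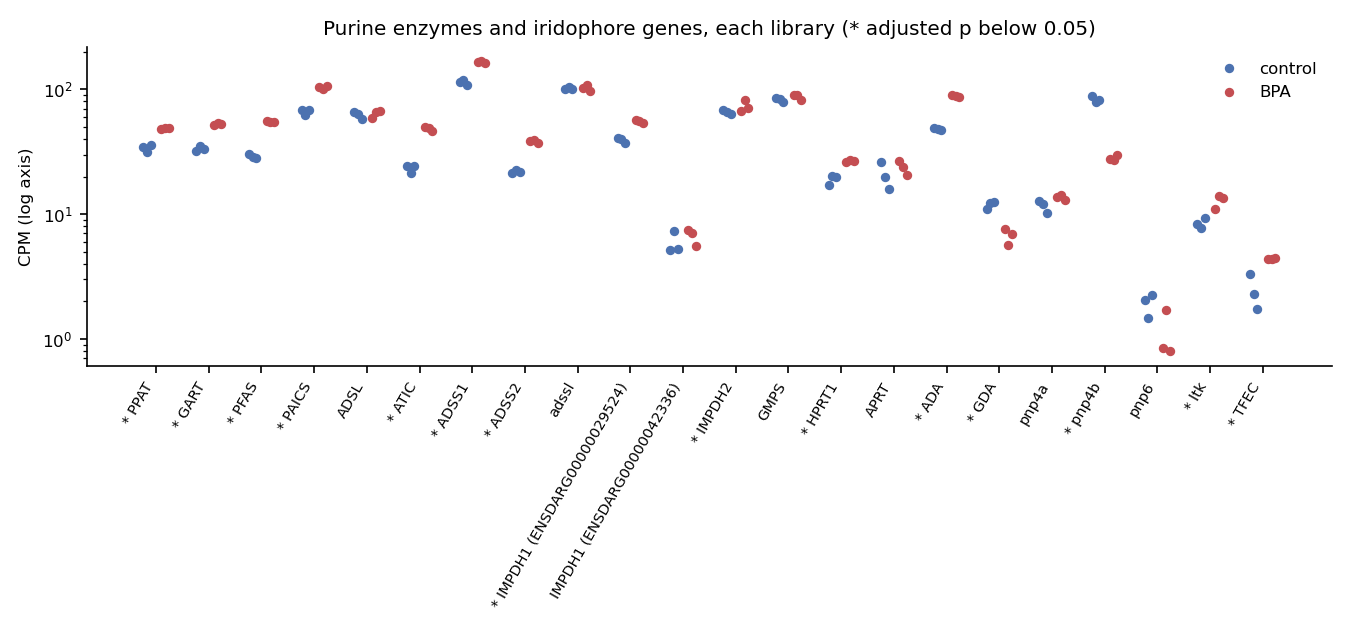
Level in CPM on a log axis of purine enzymes, followed by the phosphorylase genes and the iridophore genes ltk and TFEC, in each control and BPA library; a star marks an adjusted p below 0.05. PPAT, GART, PFAS, PAICS and ATIC lie higher in the BPA libraries, pnp4a shows a small shift, and pnp4b lies about 3 times lower.

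Genes of pigment fate and the neural crest went both ways, with 3 of 14 tested higher, 4 lower and 7 not past. That is 50% called against 38.8% over all genes. SOX10, which all 3 lineages need, was at 22.0, 19.3 and 23.4 CPM in the control libraries and 15.8, 14.5 and 15.4 CPM in the BPA libraries. It fell by 0.50 ± 0.09 (SE) on the log2 scale (adjusted p = 3.02e-04). SOX10 is also a glial gene. SOX9 (ENSDARG00000003293) fell from 52.7 ± 4.56 to 30.5 ± 2.35 CPM, and the other SOX9 gene (ENSDARG00000043923) did not pass (adjusted p = 0.0967). The transcription factor gene snai2 fell from 66.5 ± 6.99 to 56.2 ± 1.15 CPM, and the endothelin receptor gene EDNRA was called lower (adjusted p = 0.0218), but not without BPA library 1 (0.0532) or BPA library 2 (0.133). The receptor gene erbb3b rose from 7.05 ± 0.301 to 10.3 ± 1.28 CPM, a call lost without BPA library 3 (adjusted p = 0.0577). The early neural crest gene crestin had 4 counts in each of 2 libraries and 0 in the others.

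TFAP2A and TFAP2C, transcription factor genes of neural crest and skin, were higher with BPA, at 113 ± 4.93 against 151 ± 8.18 CPM and 55.1 ± 0.378 against 108 ± 4.44 CPM. Most of the epidermal markers listed, though not all, were called higher too. Of 10 tested 7 rose and 1, cldni, fell, or 80% called against 38.8% over all genes. The genes krt8 and epcam did not pass (adjusted p = 0.956 and 0.490). The epidermal list was named after its values were seen, so the share only describes these 10 markers. Their summed level was 15193 to 15661 CPM in the control and 25568 to 26241 CPM in the BPA libraries. The keratin gene krt5 rose from 1480 ± 8.66 to 3582 ± 94.4 CPM. The part of skin cells in these values was not tested.

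**Figure D5:**
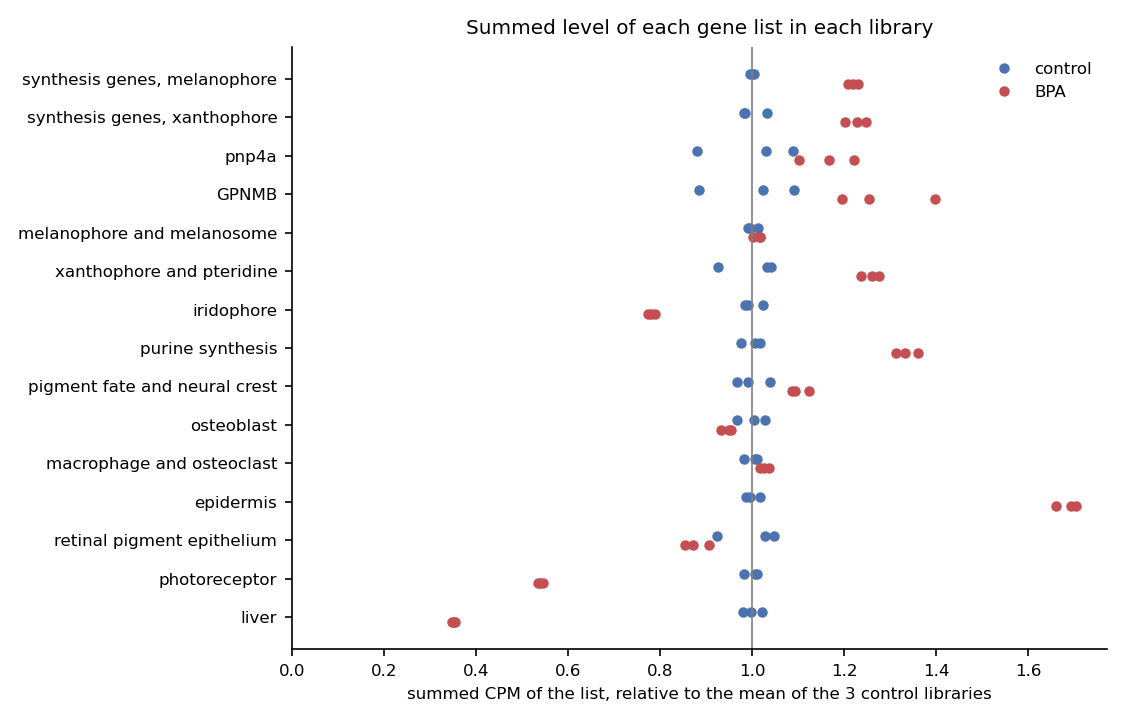
Summed CPM of each gene list in each library, divided by the mean of the 3 control libraries. The pigment synthesis genes of the melanophore and xanthophore lineages lie about 1.22 and 1.23 times the control mean in the BPA libraries, epidermal markers about 1.69 times, and liver markers about 0.352 times.

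Among genes of at least 1 CPM, those whose pattern over the 6 libraries lay closest to that of gch2 included SPARC, ckmb, sesn3 and USF3, by Euclidean distance in mean-centred log2 CPM over 17690 genes compared. Their distances were 0.0449, 0.0534, 0.0641 and 0.0680. SPARC, which encodes the bone matrix protein osteonectin, had a mean of 1592 ± 38.0 CPM without BPA and 1962 ± 9.45 CPM with it.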

How the data were processed

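The authors deposited raw read counts per Ensembl gene for 6 libraries, unnormalized. The tools named in the submitters' processing notes are featureCounts 2.0.6, STAR 2.7.10a, FastQC and R 4.4.2, and the build named there is GRCz11. Strand setting, annotation release and treatment of multiply mapped reads are not given in the sources used here, so paralogs and overlapping genes are uncertain. Of nonzero counts 80.2% to 81.7% were even in the control libraries and 76.1% to 78.5% in the BPA libraries. The cause of this difference was not tested. Both mates of a pair may have been counted, and floors (3 counts per library), which cover counting error only, may be too low. Symbols came from a table naming 29201 of the 32520 genes; of the 173 symbols listed, 7 had no match. Gene lengths of this build were not used, so CPM of different genes do not compare their transcript numbers. Ratios of genes are compared only between groups, and a summed level is weighted toward genes with more reads.

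Counts were tested with edgeR 4.0.16 in R 4.3.3 (filterByExpr, minimum count 10; trimmed mean of M values; robust quasi-likelihood F-test; adjusted p threshold 0.05). Scripts were tested on simulated data. CPM use the same scaling, and log2 CPM a prior count of 2. Alternatives were other scalings, no filter, DESeq2 1.42.0, no robust estimation, a replicate block and each library left out.

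Members and lists were chosen with earlier results of these data known. Liver and epidermis lists, and PTS, PCBD1, QDPR, PAX7, slc2a11b, PPAT, PAICS, ADSL, ADSS1, adssl, GMPS, IMPDH1, IMPDH2, ALX4, alkal1, ALKAL2, EDNRB, pnp6, apoda.1, defbl1, MLPH, trpm1b, TFAP2E, AP3B1, TJP1, snai2, crestin, rlbp1a, rgrb, spp1, IFITM5, PANX3, CTSK, MFAP4, cldni and krt5, were named after their values were seen. The rule for other names took all 11 genes, up to 6 called genes a list by size of change with a mean of at least 1 CPM, and defining genes of each lineage. Some genes that this rule takes are not reported here.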

Additional observations from a re-analysis of the deposited data

How the results depend on the processing

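Of 132 comparisons of the 11 pigment genes with an alternative, 122 kept their side of the threshold, 10 lost the call and 0 reversed a call. In 3 of the 122, for genes near 0 that were never called, the sign turned: MITF (ENSDARG00000003732) was at 0.017 without control library 2, and DCT at 0.045 without control library 1 and 0.033 without BPA library 2 (log2 fold change). TYR (log2 fold change 0.73 to 1.02), TYRP1 (ENSDARG00000056151) (0.47 to 0.56) and gch2 (0.28 to 0.33) kept their calls under every alternative run. Leaving out 1 library left between 3 and 5 of the 11 called higher, in place of 6, and 0 called lower. No pairing by number was seen, though 3 libraries a group cannot exclude one. Deviations of same-numbered libraries from their group means correlated at -0.013, -0.0037 and 0.012, and those of unlike-numbered libraries at -0.014 to 0.018. With the number as a replicate block 5 of the 11 were called, MITF (ENSDARG00000037833) having an adjusted p of 0.0501. Over all genes the block gave 8164 calls against 8213, and DESeq2 7882. The cause of the lost calls was not tested. Depth limits MITF (ENSDARG00000037833), SLC24A5 and crestin, which had few counts.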
